A study of Schizosaccharomyces pombe with 2 samples.

Results

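The hexose transporter family of fission yeast, Schizosaccharomyces pombe, is described here across 2 two-colour spotted arrays. Its members are the genes ght1 to ght8, found by gene name or systematic name in the array annotation. Of these 8 genes, 7 had a probe, among 5006 gene probes in all. ght8 stood under its systematic name SPCC548.06c, and no probe was matched to ght7, which was not analysed here. Each array compared a wild-type strain carrying pDUAL-Ssn6, a plasmid for expression of the corepressor subunit Ssn6, with the same wild type holding pDUAL-EMPTY. Both cultures were grown to log phase at 30 °C in minimal medium lacking uracil, so both also carried a plasmid under selection. Per the labels, the Ssn6 culture was labelled with Cy3 on array 1 and with Cy5 on array 2. The promoter that drives Ssn6 on the plasmid is not given in the sources used here.

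Hexose transporters are membrane proteins of the major facilitator superfamily that carry sugars across the plasma membrane. Fission yeast ferments glucose even in air, so sugar uptake sets the supply for glycolysis. Ght5 is a high-affinity glucose transporter that cells need for growth on little glucose. Its gene is repressed by the zinc-finger protein Scr1 when glucose is plentiful. Ght1 and Ght2 carry glucose, Ght6 carries fructose as well as glucose, and Ght3 is known as a gluconate transporter. Ssn6 is a subunit of the Ssn6-Tup corepressor, which in budding yeast is brought to glucose-repressed genes by the Scr1 relative Mig1.

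The files name the channels B and A without a dye or a culture, so a ratio below always sets channel B against channel A, with no array turned. On both arrays the gene on the plasmid, ssn6, was brighter in channel B, with log2 ratios of 1.91 on array 1 and 2.18 on array 2 (2.04 ± 0.19, SD, n = 2; adjusted p = 6.69e-05). If the channels held the same dye on both arrays, the labelled dye swap would give opposite signs. Across 4903 genes tested, the arrays ran the same way (Pearson r = 0.8046, Spearman rho = 0.6977, across genes, which are not independent replicates). Which culture each channel held is thus not settled by the labels, and a dye effect may not cancel in the mean. The arrays had 9803 and 9995 gene spots with signal in both channels, and their median gene signals were 82901 and 90289 in channel B and 77032 and 76938 in channel A.

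The members split by direction. ght2 was higher in channel B, ght5 was lower in channel B, and the other 4 tested members did not pass the threshold of 0.05 on the adjusted p. Called were 2 of 6 members tested (33.3%), against 27.9% of all genes tested, so the share of members called was near the background. In the single directions, 11.3% of all genes tested were called higher in channel B and 16.6% lower, and the members had 1 call each way. At least 1.5-fold the same way on both arrays were 0 of the 6 members, against 17.7% of all genes tested. The median log2 ratio of the 6 members was -0.36, beside 0.01 over all genes tested. The same sign on both arrays was seen for 5 of the 6 members and for 75.8% of all genes tested. An unadjusted p under 0.05 was reached by 4 of the 6 members and by 41.4% of all genes tested. The p-values rest on 2 arrays, which the labels do not say to be separate cultures. The spread behind them is drawn mostly from all genes tested together (7.51 prior degrees of freedom against 1 residual). A p-value or interval thus says little of how well a single gene repeated between the arrays. For a single gene the smallest exact p that sign changes over 2 arrays allow is 0.5.

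ght2, a glucose transporter gene, was the only tested member called higher in channel B. Its spots read 206364 and 211210 in channel B on array 1, against 118966 and 142528 in channel A. On array 2 they read 302356 and 149623 in channel B, against 173727 and 74630 in channel A. All 4 spots were thus brighter in channel B, by 1.73-fold and 1.48-fold on array 1 and by 1.74-fold and 2.005-fold on array 2 before normalization. After loess the log2 ratio was 0.46 on array 1 and 0.57 on array 2. The mean was 0.52 ± 0.08 (SD, n = 2), which is 1.43-fold higher in channel B (95% interval 0.15 to 0.89 on the log2 scale; adjusted p = 0.0455). This value stood at percentile 88.2 of the ratios of all genes tested. The adjusted p lies close to the threshold, and without the filter on dim probes it was 0.0503.

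ght5, the high-affinity glucose transporter gene, had the lowest mean ratio of the tested members. Its single measured spot on array 1 read 117557 in channel B and 154199 in channel A. The second spot on that array had no signal in either channel. On array 2 the spots read 103754 and 67051 in channel B, against 138325 and 89790 in channel A. All 3 spots were dimmer in channel B, and channel A was brighter by 1.31-fold, 1.33-fold and 1.34-fold before normalization. The log2 ratio after loess was -0.57 on array 1 and -0.69 on array 2, with a mean of -0.63 ± 0.09 (SD, n = 2). That is 1.55-fold higher in channel A (95% interval -1.002 to -0.26; adjusted p = 0.0208). The ratio on array 1 fell just short of 1.5-fold, and without any normalization ght5 did not pass (mean -0.40, adjusted p = 0.159).

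ght8 and ght4 had means below 0 that did not pass. ght8 had 157331 in channel B and 221660 in channel A in its single measured spot on array 1. On array 2 its spots read 145131 and 199209 in channel B, against 153071 and 178326 in channel A, so the array 2 spots went opposite ways before normalization. Its log2 ratio was -0.75 on array 1 and -0.30 on array 2 (mean -0.52 ± 0.32, SD, n = 2; 95% interval -0.93 to -0.12; adjusted p = 0.0584). The arrays differed more for ght8 than for ght2 or ght5, and the lower value came from the array with 1 spot.

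ght4 was dimmer in channel B in all 4 spots. On array 1 it had 34021 and 26192 in channel B, against 42622 and 36817 in channel A. On array 2 it had 37154 and 43277 in channel B, against 48748 and 45293 in channel A. The mean log2 ratio was -0.49 ± 0.08 (-0.54 on array 1 and -0.43 on array 2; 95% interval -0.86 to -0.12; adjusted p = 0.0546). Both genes thus lay just outside the threshold and ght2 just inside it, and the calls of all 3 changed under some of the alternatives given in the closing section.

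ght6, which encodes a transporter of fructose and glucose, lay closer to 0. Its spots had 62149 and 70867 in channel B on array 1, against 68962 and 72003 in channel A. On array 2 they had 35263 and 49470 in channel B, against 39361 and 46666 in channel A. The log2 ratio was -0.21 on array 1 and -0.24 on array 2, the smallest difference between arrays in the family (mean -0.23 ± 0.02, SD, n = 2). It did not pass (95% interval -0.59 to 0.14; adjusted p = 0.326).

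ght1, a glucose transporter gene, went opposite ways on the arrays. On array 1 its spots read 87749 and 50463 in channel B, against 64358 and 30567 in channel A, both brighter in channel B. On array 2 they read 16011 and 27069 in channel B, against 16949 and 36245 in channel A, both dimmer in channel B, and the dimmer spot lay under the negative control limits of 17656 in channel B and 17669 in channel A. The log2 ratios of 0.45 and -0.44 gave a mean of 0.01 ± 0.63 (SD, n = 2), with a 95% interval of -0.50 to 0.51 (adjusted p = 0.984). The spots on array 2 were also smaller, at 59 and 66 pixels against 86 and 81 pixels on array 1, where the median gene spot had 82 pixels on array 2 and 85 on array 1. On array 2 the mean signal of ght1 was 21540 in channel B and 26597 in channel A, below the 95th percentile of the bacterial E. coli probes with signal there (25430 in channel B and 32626 in channel A). The part of spot size and brightness in the change of sign was not tested.

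ght3, the gluconate transporter gene, was the dimmest member probe and was left out of the test. Its spots had 18276 and 13664 in channel B on array 1, against 19382 and 16923 in channel A. On array 2 they had 8377 and 16819 in channel B, against 9745 and 14240 in channel A. The mean signal on array 2 was 12598 in channel B and 11992 in channel A, under the limits of 17656 and 17669 that 694 negative control spots set (their 95th percentile). The probe was thus below the negative control limits of both channels on array 2, and its log2 ratio of -0.23 ± 0.07 (SD, n = 2) carries no call. Its mean signal on array 1 was under the limit in channel B (15970 against 19925) and above it in channel A (18152.5 against 14253). On array 2, 1 of its spots covered only 39 pixels and had flag B in both channels, whereas the other member spots with signal had flag C.

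**Figure D1:**
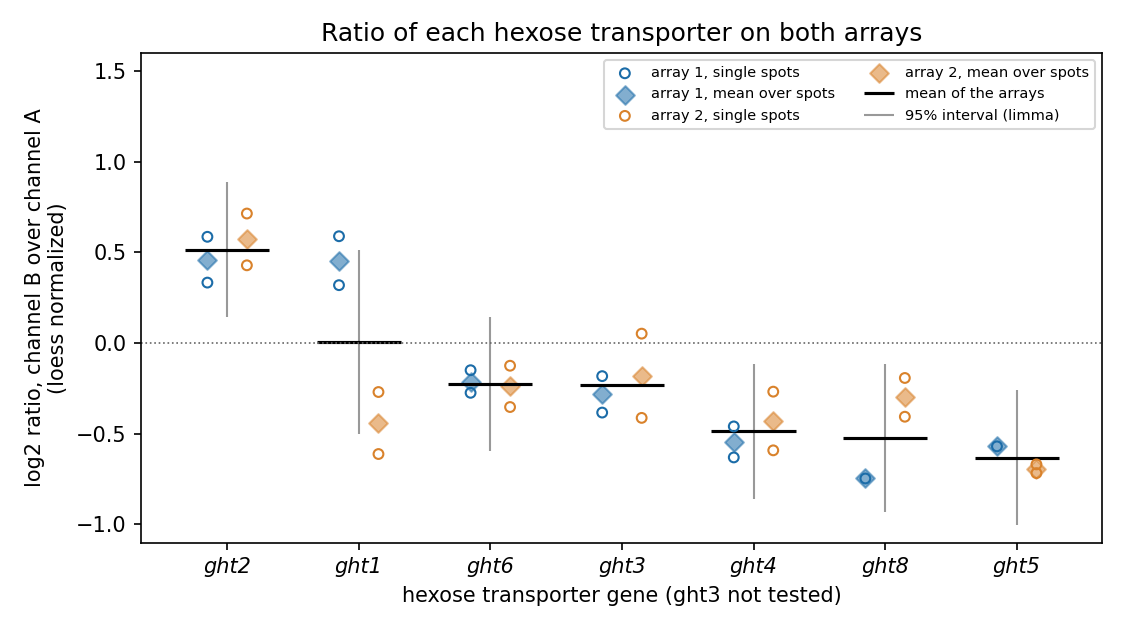
Loess-normalized log2 ratio (channel B over channel A) of the 7 members with a probe, ordered by their mean. Open circles are single spots, diamonds the mean over spots of an array, black bars the mean of the arrays and grey lines the 95% interval of limma. All spots of ght2 lie above 0 and all spots of ght4, ght5, ght6 and ght8 below 0, and ght1 has its arrays on opposite sides.

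The plot of ratios by array shows the order of the members, from ght2 at the top through ght1, ght6, ght3, ght4 and ght8 to ght5. The array values of ght2 and ght1 did not overlap, though on array 1 they differed by only 0.01 on the log2 scale. ght3 is listed by its value but was not compared, since its probe was too dim on array 2. With ght3 left aside, ght6 (-0.24 and -0.21) and ght4 (-0.54 and -0.43) did not overlap, and the other neighbours in that order did. Set against ght5 on the same array, ght2 was higher by 1.03 on array 1 and by 1.26 on array 2 on the log2 scale (mean 1.15 ± 0.17, SD, n = 2). Against ght4 the difference was 1.005 on array 1 and 1.001 on array 2, and against ght8 it was 1.21 and 0.87. These differences were not tested, since the smallest exact p of 2 arrays is 0.5.

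Across the family, 19 of the 26 spots with signal had a normalized ratio below 0, and before normalization 9 of 26 were brighter in channel B. The median normalized ratio over all genes tested was 0.01, and the share of all gene spots below 0 was not counted. The 26 spots are repeat prints of the member probes, ght3 among them, and do not count as independent replicates. The median gene spot was brighter in channel B before normalization, with a log2 ratio of 0.19 on array 1 and 0.28 on array 2, and the loess ratios are relative to that shift. Spots of the same member on an array differed by 0.05 (ght5, array 2) to 0.46 (ght3, array 2) on the log2 scale. The median difference between the 2 spots of a gene was 0.19 on array 1 and 0.14 on array 2. No member spot with signal held saturated pixels by the files' saturation factor.

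**Figure D2:**
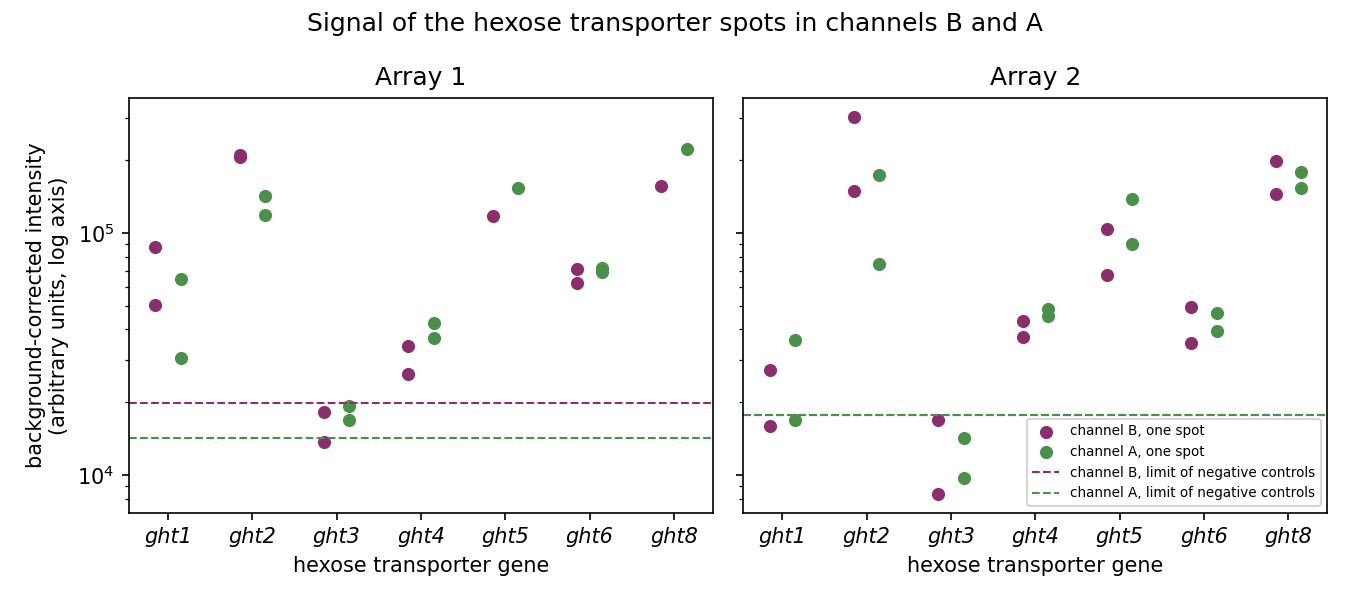
Background-corrected intensity of each member spot in channel B (left of each pair) and channel A (right) on both arrays, on a log axis. Dashed lines mark, for each channel, the 95th percentile of the negative controls. ght3 lies near or below these lines, and 1 spot of ght1 on array 2 lies below the lines of both channels.

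Brightness of a spotted probe depends on the probe as well as on the transcript, so the signal is described for each probe and not compared as transcript level. The ght8 and ght2 probes were among the brighter gene probes. ght8 stood at percentiles 72.8 and 73.1 of all gene probes in channel B on arrays 1 and 2, and at 83.1 and 77.3 in channel A. ght2 stood at 79.9 and 79.8 in channel B, and at 70.1 and 69.2 in channel A.

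ght5 was at 63.5 and 47.1 in channel B, against 75.7 and 65.9 in channel A. ght6 was at 37.3 and 16.9 in channel B, against 43.9 and 21.9 in channel A, and ght4 at 7.2 and 15.2, against 17.2 and 25.7. ght3 lay between 0.8 and 2.2 in both channels. ght1 was at 39.3 and 3.5 in channel B, the widest difference between arrays among the 7 probes in that channel, against 24.6 and 7.7 in channel A. The members are related genes, and cross-hybridisation between their probes was not tested.

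The family is spread over all 3 chromosomes. In the gene order of the ASM294v3 table, ght6, ght5, ght8 and ght1 lie within a stretch of 10 protein-coding genes on chromosome III, with ght8 and ght1 side by side. Of the 6 other genes in the stretch, 3 were tested. The left neighbour of ght8, dbl5, had a probe too dim to test (-0.22 ± 0.09, SD, n = 2), and 2 genes had no matched probe. Of the 3 tested, 1 was lower in channel B, wtf4 (-1.24 ± 0.01; adjusted p = 0.000793), named after its values were seen, and 0 were higher. The diacylglycerol acyltransferase gene dga1, right of ght5, had -0.23 ± 0.10 on the log2 scale (adjusted p = 0.326). Outside the stretch, the gene mug146, left of ght6, had 0.26 ± 0.54 (adjusted p = 0.375), and SPCC1529.01, right of ght1, had 0.01 ± 0.19 (adjusted p = 0.967). Of the tested direct neighbours of ght6, ght5, ght8 and ght1, none passed the adjusted p in limma.

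ght4 lies near the left end of chromosome II, between genes called in opposite directions. Its left neighbour mal1, an alpha-glucosidase gene, was lower in channel B (-0.64 ± 0.18; adjusted p = 0.0218), though not without normalization (-0.47, adjusted p = 0.0955). Its right neighbour frp1, a ferric reductase gene of iron uptake, was higher (0.82 ± 0.45; adjusted p = 0.0149). The neighbours of ght2 had ratios of 0.50 ± 0.44 (usp102, adjusted p = 0.0839) and 0.42 ± 0.16 (prp39, adjusted p = 0.0885), neither past the threshold. ght3 is number 28 of the protein-coding genes counted from the left end of chromosome I, and its neighbours SPAPJ695.01C (-0.64 ± 0.60) and shu1 (-0.51 ± 0.10) were also too dim to test.

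The genes with ratios nearest to those of ght5, by Euclidean distance over 2 arrays, were SPBC800.14C (0.01 on the log2 scale), SPBC1271.10C (0.01) and psf2 (0.01). Their mean ratios were -0.63, -0.62 and -0.62. With 2 arrays such nearness is a description of the values and carries no test.

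Further lists covered glucose sensing, Ght5 regulators, the Ssn6-Tup corepressor, hexose and gluconate entry enzymes, glucose-repressed carbon genes and other sugar, inositol and gluconate transport. These 6 lists held 52 genes and were chosen with earlier results of these data known. Of the 50 tested, 15 were lower and 2 were higher in channel B, and the median was -0.24. Over all genes tested, 16.6% were lower and 11.3% higher, with a median of 0.01, and the same shares stand beside the counts of the single lists. The 2 higher genes were ssn6 itself, the gene on the plasmid, and itr1. With median centring in place of loess the counts were 9 higher and 14 lower.

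In the cAMP and protein kinase A pathway, which reports glucose to the nucleus, 0 of 13 genes were higher and 5 were lower, with a median of -0.45. Lower were the kinase gene sck2 (-0.69 ± 0.07; adjusted p = 0.0144) and the catalytic subunit gene pka1 (-0.70 ± 0.18; adjusted p = 0.0153). The regulatory subunit gene cgs1 (-0.65 ± 0.25) and the cAMP phosphodiesterase gene cgs2 (-0.72 ± 0.37) were lower too, as was git1 (-0.55 ± 0.23), named after its values were seen. With median centring 7 of the 13 were lower, and without normalization 0 passed either way. The median of the 12 tested AMP-activated kinase, TORC2 and Ght5 regulator genes was 0.02. Of these only sds23, a gene needed for growth on little glucose, was called (-1.16 ± 0.20; adjusted p = 0.00136). sds23 had -0.75 with median centring (adjusted p = 0.00799) and did not pass without normalization (-0.52, adjusted p = 0.0644), where 4 of the 12 were higher and 0 lower.

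Scr1, the repressor of ght5, had a gene ratio of 0.37 ± 0.15 that did not pass (adjusted p = 0.123). Nor did scr1 pass with median centring (0.43, adjusted p = 0.0781) or with loess within print tips (0.20, adjusted p = 0.35). It passed only without normalization (0.66, adjusted p = 0.0157), where the median of all genes was 0.24. The arrestin gene aly3, whose product acts on Ght5 at the cell surface, had 0.43 ± 0.05 (adjusted p = 0.0781). It did not pass with median centring (0.38, adjusted p = 0.107). It did pass without normalization (0.61, adjusted p = 0.0253) and when loess was fitted within print tips (0.51, adjusted p = 0.0367). scr1 and aly3 were chosen for naming after their values were seen. Of the corepressor genes besides ssn6, tup11 had 0.26 ± 0.14 (adjusted p = 0.267), and tup12 had no matched probe.

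Among 9 enzymes that take up hexose or gluconate into metabolism, 2 were lower and 0 higher with loess, but 0 were lower and 5 higher with median centring. The members called with loess were the transaldolase gene tal1 (-0.72 ± 0.44) and the glucose-6-phosphate dehydrogenase gene zwf1 (-0.52 ± 0.05), and their ratios with median centring were 0.26 and -0.22. Of 10 glucose-repressed carbon genes, 6 were lower and 0 higher with loess, with a median of -0.75. They included inv1 for invertase (-4.80 ± 0.49), gld1 for glycerol dehydrogenase (-2.46 ± 0.05), mae1 for malate transport (-1.04 ± 0.04) and dak2 for dihydroxyacetone kinase (-0.86 ± 0.12). mae1 had -0.06 with median centring and did not pass there (adjusted p = 0.836). With median centring 5 of the 10 were lower and 1 higher, with a median of -0.49. Without normalization 4 were lower and 1 higher, with a median of -0.26. The higher gene was mae2 under both settings (0.99 and 1.22), which had 0.13 with loess and did not pass there.

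Of 4 other transport genes, sut1, a disaccharide transporter gene, was lower at -1.83 ± 0.21 (adjusted p = 0.000128), and the inositol transporter gene itr1 was higher at 0.68 ± 0.08 (adjusted p = 0.0153). sut1 had a signal of 118102 in channel B and 380834 in channel A on array 1, and 171485 in channel B and 421849 in channel A on array 2. itr1 had 176730 in channel B and 102697 in channel A on array 1, and 205518 in channel B and 98979 in channel A on array 2. sut1 was further from 0 than every hexose transporter measured. The mean of itr1 was close in size to that of ght5 (-0.63 ± 0.09). On array 1 ght8 was further from 0 than itr1 (-0.75 against 0.62).

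**Figure D3:**
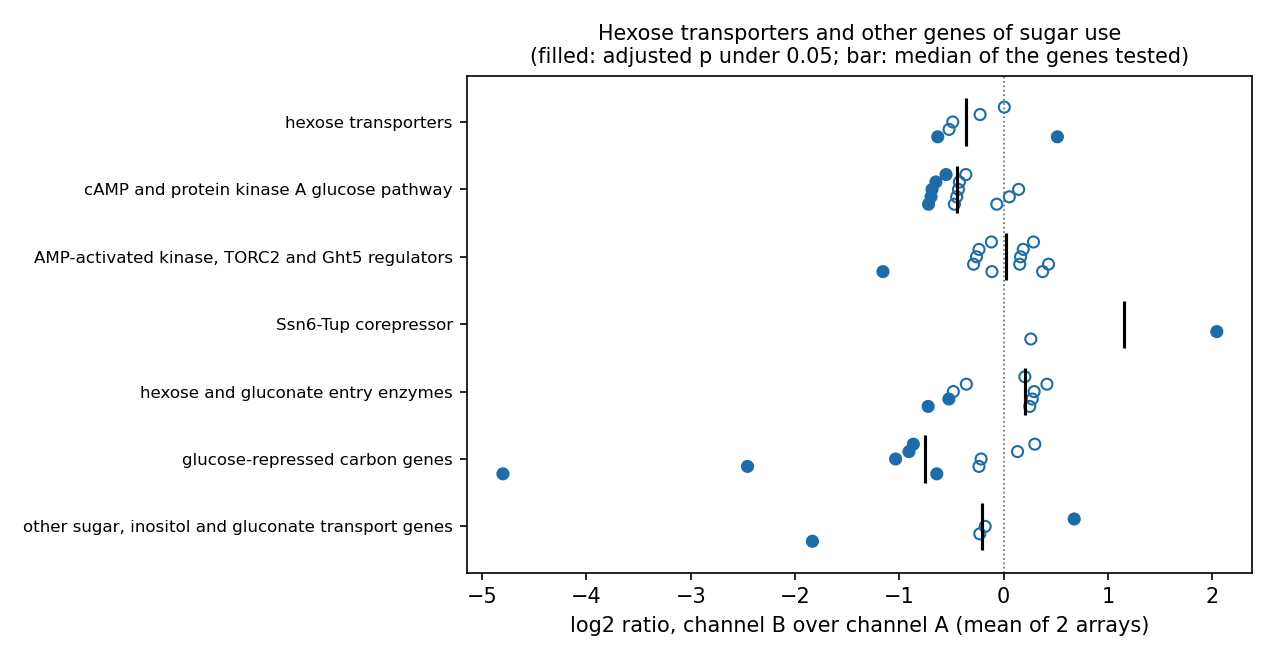
Mean ratio over 2 arrays (log2, channel B over channel A) for the 6 tested hexose transporters and for the genes of the other lists. Filled circles passed an adjusted p of 0.05, and black bars are list medians. The hexose transporters span -0.63 to 0.52, a narrower range than the glucose-repressed genes, which reach -4.80.

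The ratios of ght2 and ght5 kept their sign in each processing alternative run. Their values were unchanged without saturated spots and with flag C spots only. The same held without the filter on dim probes and with the limit from E. coli probes, so these settings could not turn a sign. With the sign of array 1 turned, the sign of their mean shows only which array had the larger absolute ratio. In the plot of ratios by setting, ght2 ranged between 0.06, with the sign of array 1 turned, and 0.79, without normalization. ght5 ranged between -0.71 and -0.06, the value nearest 0 again being the one with array 1 turned. The part of the authors' deposited table used here held 1 spot per array for these genes. There the log2 ratio was 0.60 and 0.53 for ght2 on arrays 1 and 2 and -0.53 and -0.63 for ght5. ght1 again went opposite ways in the authors' deposited table, at 0.33 on array 1 and -0.17 on array 2.

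**Figure D4:**
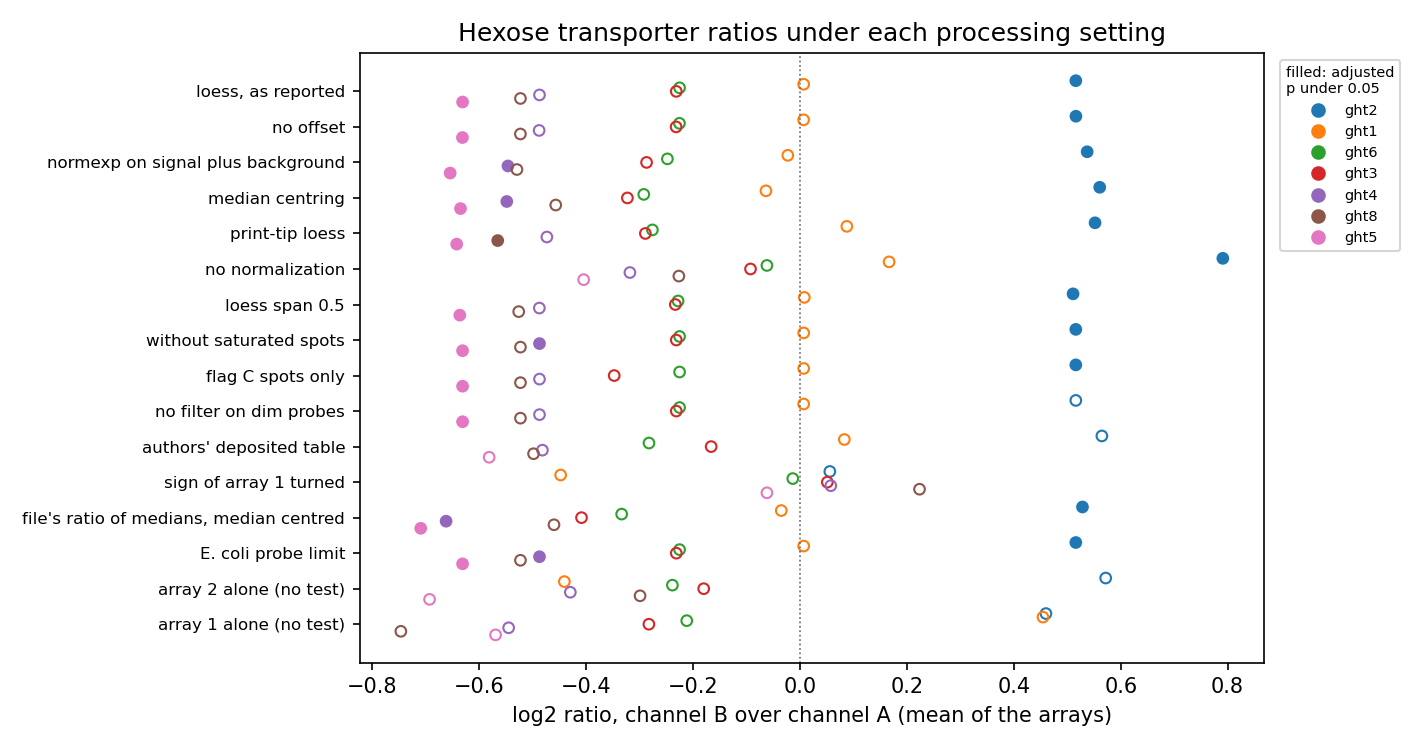
Mean ratio (log2, channel B over channel A) of each member (colours) under each processing setting (rows), with the ratio of each array alone in the lowest rows. Filled circles passed an adjusted p of 0.05 and open circles did not or had no test. ght2 stays to the right of 0 and ght5 to the left in every row, and ght1 changes side.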

How the data were processed

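The members and the gene lists were chosen with earlier results of these data known. The scanner files the authors deposited give each spot's intensity in channels A and B, already background-corrected per the file headers. Per the file headers they also give the background, the ratio of channel A over B and the saturation factor, a fraction up to 1. Neither labels nor headers name the scanner software or the grid. The values in the authors' deposited table were lowess-normalized per the labels' series text, and their log10 scale was found from the data. Set against the scanner files, its first 5760 of 11520 rows followed the log10 ratio of B over A (r = 0.916 and 0.941), and the rest did not (r = 0.0356 and 0.0566) and were not used. Each of its columns had a median of 0.01, and -2 was a floor and was treated as missing.

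The columns being already corrected, 50 was added to each signal in place of normexp. Log2 ratios were normalized by loess (span 0.3, controls at weight 0), and spots of a probe were averaged. Each array had 694 negative control spots (empty, buffer and E. coli). Genes whose mean signal lay below their 95th percentile in both channels of either array were left out (98), and 5 lacked a ratio. The mean of 4903 genes was tested against 0, two-sided, with limma 3.58.1 in R 4.3.3 (data.table, version 1.17.8), with Benjamini-Hochberg adjustment over all of them. There was 1 residual degree of freedom and 7.51 prior degrees. Of the gene probes 4777 were matched to the ASM294v3 gene table, and 229 kept the files' names. The fit was tested on simulated data. Genes were named by rule: all members, ssn6, tup11 and tup12, called list genes (at most 4 a list and direction), direct neighbours, and the 3 genes nearest to the member with the largest ratio. The number of arrays limits the precision.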

Additional observations from a re-analysis of the deposited data

Results flagged for a closer look

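The probe SPAC1348.14c, which neither the files nor the gene table pair with a gene, had signal above the negative controls in both channels of array 1, where it read 23101 in channel B and 28118 in channel A. On array 2 it read 11885 in channel B, under its limit of 17656, and 17738 in channel A, just above its limit of 17669. Both array 2 values lay below the 95th percentile of the E. coli probes with signal there (25430 in channel B and 32626 in channel A). On array 1 the probe was below that percentile in channel B (36612) and above it in channel A (26322). Its mean log2 ratio was -0.643 ± 0.183 (SD, n = 2; -0.51 on array 1 and -0.77 on array 2; adjusted p = 0.0218). The probe was singled out after its values were seen, because its number is that of the systematic name of ght7, SPBC1348.14c, except for the chromosome letter. Of 14 probes of the SPAC1348 series, 13 have such a counterpart in the gene table, which holds 0 names of that series. No table used here states that they are the same genes, so the value was not counted for ght7.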

How the results depend on the processing

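The results were recomputed under 15 alternatives, of which the limit from E. coli probes was chosen after seeing the data. ght6 kept its sign in all 15 and stayed outside the threshold in the 13 that have a test. For a gene with the same sign on both arrays, the sign with array 1 turned shows only which array had the larger absolute ratio. ght2 (0.52) no longer passed without the filter on dim probes (adjusted p = 0.0503), with the authors' deposited table (0.56, adjusted p = 0.087) and with the sign of array 1 turned (0.0559). ght5 (-0.63) no longer passed without normalization (-0.40), with the authors' deposited table (-0.58) and with array 1 turned (-0.0617). ght4 (-0.49) passed with normexp (-0.55), median centring (-0.55), the file's ratio of medians (-0.66), without saturated spots (-0.49) and with the E. coli limit (-0.49), and was reversed with array 1 turned (0.0577). ght8 passed with print-tip loess (-0.57) and was reversed with array 1 turned (0.22). ght1 was reversed with normexp (-0.0227), median centring (-0.0636), the file's ratio of medians (-0.0349) and array 1 turned (-0.45). ght3 moved to -0.32 with median centring, -0.0924 without normalization, -0.35 with flag C spots only, 0.0513 with array 1 turned and -0.41 with the file's ratio of medians. ssn6 (2.04) did not pass with the authors' deposited table (2.29) or with array 1 turned (0.13), and it had no value, and so no test, with flag C spots only. The cause of these changes was not tested. With array 2 or array 1 alone, which have no test, ght1 ranged between -0.44 and 0.45 and ght8 between -0.75 and -0.30.

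The count of members higher (1) was 0 without the filter, with the authors' deposited table and with array 1 turned. The count lower (1) was 2 with normexp, median centring, print-tip loess, the file's ratio of medians, the E. coli limit and without saturated spots, and 0 without normalization, with the authors' deposited table and with array 1 turned. Over all genes, 554 were higher and 814 lower, against 1265 and 443 without normalization, where the median of all genes was 0.24. In limma 0 passed either way with the authors' deposited table (1790 with an unadjusted p under 0.05) and with array 1 turned (6). Of calls over all genes, 40.5% were higher, 47.3% with median centring and 74.1% without normalization. Of the list genes 2 were higher, against 9 with median centring, 9 with the file's ratio of medians, 4 with print-tip loess, 13 without normalization and 0 with the authors' deposited table or array 1 turned. Of them 15 were lower, against 5 without normalization and 0 with the authors' deposited table or array 1 turned. Each array holds both cultures, so its ratio already pairs them, and no further pairing was made because the arrays form a single group.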
